A study of Mus musculus with 8 samples.

Results

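The genes Lrrc2, Alpk2, Antxr2, Arhgap27, Arid3c and Ankrd69 were described in the retina of wild-type (WT) mice and of mice with the genotype label Kv8.2 KO, for knockout of the potassium channel subunit that Kcnv2 encodes. They were chosen by name because each had been higher in the KO libraries across subsets of libraries, so their difference between the groups is given as a description with no test. The 6 names matched 7 of the 26824 rows of the gene count table, since Ankrd69 names 2 Ensembl genes, and 6 rows passed the filter on low counts among 20167 tested genes. The samples were 3 WT libraries (WT 1 to WT 3) and 5 libraries labelled KO (KO 2 to KO 6) of untreated mice aged 1 month. Each library was made from total RNA of 2 retinas of 1 mouse. The strain, the sex and the kind of knockout allele were not given in the sources used here. The authors left 2 unnamed KO samples out of their own test, and all 5 were used here.

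Kv8.2 is a silent subunit that combines with Kv2 subunits in the inner segments of rods and cones. Loss of its gene in people causes a cone dystrophy with a supernormal rod response. The 6 genes belong to unrelated families. Lrrc2 encodes a leucine-rich repeat protein known mainly from heart and skeletal muscle. Alpk2 encodes an atypical alpha kinase known from heart development. Antxr2, also called capillary morphogenesis gene 2, encodes a cell-surface receptor that binds collagen IV and laminin and is used by anthrax toxin. Arhgap27 encodes a GTPase-activating protein for small GTPases with a role in endocytosis. Arid3c encodes a DNA-binding protein of the AT-rich interaction domain family, described in B lymphocytes. Ankrd69 is named for its ankyrin repeats. Whether these genes have a known role in retina was not something the counts could show.

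Library totals were 17759146 to 25188870 counts, at which 3 counts equal 0.130 to 0.164 CPM (the count of a gene per 1e+06 counts of its library). Kcnv2 itself was present in every library, at 519 to 551 CPM in WT and 398 to 585 CPM in the libraries labelled KO (log2 fold change -0.24, edgeR adjusted p-value 0.275), so its level does not identify the KO libraries, and directions below are those of the labels. On the leading principal component (39.5% of variance), KO 4 to KO 6 had scores of 45.7 to 58.1 and the other 5 libraries of -40.2 to -11.9. KO 3 held 36332 CPM of 9 lens genes in sum, WT 2 held 981 CPM, WT 1 482 CPM and KO 2 156 CPM, and the other 4 libraries 1.37 to 16.7 CPM. Xist, which marks females, had 9 counts in WT 3 and at least 30144 in each other library, and the Y-linked Ddx3y had 2132 counts in WT 3 and at most 3 elsewhere.

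The promoters of 4 of the 6 genes were read from the RefSeq promoter table (GRCm38.p6). Those of Alpk2 and Ankrd69 were not read, so their base composition and motifs are not described. The 250 bases before the main annotated start of each of these 4 genes are shown 5′ to 3′ on the gene's strand. They are shown because the 4 windows differ in base composition. Capitals mark matches to the GC box (GGGCGG) and to the STAT motif (TTCNNNGAA), on either strand. The windows are chr9:110951295-110951544 (plus strand, Lrrc2), chr11:103363693-103363942 (minus strand, Arhgap27), chr5:98031018-98031267 (minus strand, Antxr2) and chr4:41731143-41731392 (minus strand, Arid3c).
Lrrc2 promoter: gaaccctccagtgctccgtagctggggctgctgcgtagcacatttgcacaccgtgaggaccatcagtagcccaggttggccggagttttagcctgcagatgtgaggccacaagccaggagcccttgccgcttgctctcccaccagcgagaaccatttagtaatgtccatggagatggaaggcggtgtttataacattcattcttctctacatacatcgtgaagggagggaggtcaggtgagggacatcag
Arhgap27 promoter: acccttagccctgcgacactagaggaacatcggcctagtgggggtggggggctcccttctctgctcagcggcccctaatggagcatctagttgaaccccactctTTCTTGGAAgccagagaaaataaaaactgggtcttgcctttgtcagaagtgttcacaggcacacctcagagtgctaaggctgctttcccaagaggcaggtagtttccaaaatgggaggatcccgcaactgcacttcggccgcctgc
Antxr2 promoter: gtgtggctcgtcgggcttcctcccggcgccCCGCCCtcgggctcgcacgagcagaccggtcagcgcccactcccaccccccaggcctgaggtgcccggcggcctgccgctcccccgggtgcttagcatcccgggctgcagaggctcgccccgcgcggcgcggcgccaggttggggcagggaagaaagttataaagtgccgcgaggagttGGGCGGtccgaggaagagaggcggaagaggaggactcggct
Arid3c promoter: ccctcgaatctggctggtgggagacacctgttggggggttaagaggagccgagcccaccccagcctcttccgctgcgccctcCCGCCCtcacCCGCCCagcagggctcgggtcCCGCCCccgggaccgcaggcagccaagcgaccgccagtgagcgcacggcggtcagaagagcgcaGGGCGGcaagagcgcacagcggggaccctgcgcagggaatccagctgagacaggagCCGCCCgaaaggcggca

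The Antxr2 and Arid3c windows were rich in G and C, at 72.8% and 72.0%, with 28 and 23 CG dinucleotides. Those of Lrrc2 (54.8%, 8 CG) and Arhgap27 (55.2%, 6 CG) lay near the median of 52.4% and 6 over all 32851 promoters. Each motif was searched on both strands of the 300 bases from 250 before to 50 after the start. The GC box occurred at 6 places in Arid3c and at 2 in Antxr2, and in 35.7% of all promoters. The STAT motif occurred once in Arhgap27, starting 146 bases before the start, and once in Lrrc2, starting at base 6 after it, and in 8.30% of all promoters. An AP-1 motif (TGANTCA) began at base 38 after the Lrrc2 start, and such a match occurred in 7.81% of all promoters. The other motifs searched, EGR (GCGTGGG), CRX and OTX (TAATCC), C/EBP (TTGCNNAA) and NRL (TGCTGAC), had no match in these 4 windows, and 5.04%, 7.06%, 10.8% and 4.67% of all promoters had one. A second annotated start of Arhgap27 had no match to any of the 7 motifs.

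Lrrc2 (ENSMUSG00000032495, chr9:110951545-110984066, plus strand) was the most abundant of the 6. In WT 1 to WT 3 it reached 36.5, 38.3 and 33.2 CPM. In KO 2 to KO 6 it reached 132, 111, 172, 156 and 130 CPM. Every library labelled KO was above every WT library, and the lowest of them was 2.90 times the highest WT library. WT averaged 36.0 ± 2.56 CPM (SD, n = 3), and the libraries labelled KO averaged 140 ± 24.0 CPM (SD, n = 5). On the log2 scale the fold change came to 1.96 (SE 0.15). It was 1.75 (SE 0.11) for KO 2 and KO 3 alone against WT and 2.10 (SE 0.098) for KO 4 to KO 6.

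Alpk2 (ENSMUSG00000032845, chr18:65265529-65394066, minus strand) was at 5.26, 3.81 and 5.55 CPM in WT and at 14.8, 9.60, 18.4, 20.6 and 20.5 CPM in KO 2 to KO 6. KO 3 was the lowest of the libraries labelled KO and still 1.73 times the highest WT library. WT averaged 4.87 ± 0.934 CPM (SD, n = 3), and the libraries labelled KO averaged 16.8 ± 4.65 CPM (SD, n = 5). On the log2 scale the fold change came to 1.78 (SE 0.26). All of KO 4 to KO 6 were above KO 2 and KO 3, with a mean 1.63 times theirs, and the log2 fold change against WT was 2.04 for the former and 1.32 for the latter. A share of 18.3% of its 31-base words (31-mers) occurs in other annotated genes, mostly in an antisense transcript within the gene, so part of its count is uncertain.

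Antxr2 (ENSMUSG00000029338, chr5:97882783-98031043, minus strand) was at 15.5, 13.8 and 12.4 CPM in WT and at 28.7, 26.5, 51.1, 38.7 and 38.9 CPM in KO 2 to KO 6. The groups did not overlap, and the smallest gap, KO 3 over WT 1, was 1.71-fold. WT averaged 13.9 ± 1.56 CPM (SD, n = 3), and the libraries labelled KO averaged 36.8 ± 9.80 CPM (SD, n = 5). On the log2 scale the fold change came to 1.40 (SE 0.21). As with Alpk2, all of KO 4 to KO 6 were above KO 2 and KO 3, here with a mean 1.56 times theirs. The log2 fold change was 0.99 (SE 0.13) for KO 2 and KO 3 alone and 1.64 (SE 0.12) for KO 4 to KO 6. Only 0.181% of its 31-mers occur in another gene.

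Arhgap27 (ENSMUSG00000034255, chr11:103331497-103363692, minus strand) was at 8.11, 6.16 and 9.01 CPM in WT and at 17.7, 17.1, 21.5, 23.3 and 19.5 CPM in KO 2 to KO 6. The libraries labelled KO lay close together and all were above WT. WT averaged 7.76 ± 1.46 CPM (SD, n = 3), and the libraries labelled KO averaged 19.8 ± 2.61 CPM (SD, n = 5). On the log2 scale the fold change came to 1.35 (SE 0.16). KO 4 to KO 6 again were all above KO 2 and KO 3, by a mean ratio of 1.24, the smallest of the 3 genes with this order. The gene overlaps 3 annotated antisense transcripts, and 21.6% of its 31-mers occur in 2 of them.

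Arid3c (ENSMUSG00000066224, chr4:41723836-41731142, minus strand) was scarce in WT, with 7, 6 and 9 counts, or 0.384, 0.282 and 0.400 CPM. In KO 2 to KO 6 it had 60, 90, 47, 62 and 82 counts, or 2.60, 4.28, 2.31, 3.17 and 3.74 CPM. The lowest library labelled KO was 5.79 times the highest WT library. The fold change came to 3.16 on the log2 scale (SE 0.31). The ratio of summed counts scaled to depth was 9.08, with a 95% exact interval of 5.90 to 14.7 that covers counting error only. KO 2 and KO 3 did not lie below KO 4 to KO 6, and KO 3 held the highest level. No 31-mer of Arid3c occurs in another annotated gene.

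Ankrd69 had the widest gap between the groups. Its main row (ENSMUSG00000110333, chr8:27447100-27620917, plus strand) had 3, 3 and 4 counts in WT, where the floor of a single library is 3 counts, and 51, 82, 64, 52 and 65 counts in KO 2 to KO 6. That is 0.164, 0.141 and 0.178 CPM against 2.21, 3.90, 3.15, 2.66 and 2.96 CPM. The ratio of summed counts scaled to depth was 18.4 (95% exact interval 9.87 to 38.7, counting error only), and the fitted log2 fold change of 4.16 (SE 0.32) depends on the prior count at so few WT counts. GENCODE M21 names this locus Gm45861 and tags both of its transcripts as readthrough transcripts, which join exons of neighbouring genes. It spans the second row with the symbol Ankrd69 (ENSMUSG00000063932, chr8:27447670-27495172), named Poteg there. Of the 31-mers of the main row, 33.4% occur in other annotated genes, 19.3% in the second row and 13.9% in Gm1698, so part of its count is uncertain. Of those of the second row, 73.3% occur in the first. The second row held 0 counts in each WT library and 22, 4, 0, 4 and 0 counts in KO 2 to KO 6, did not pass the low-count filter and gets no fold change. The first row was high in every library labelled KO, whereas the second was above 4 counts in KO 2 only.

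**Figure D1:**
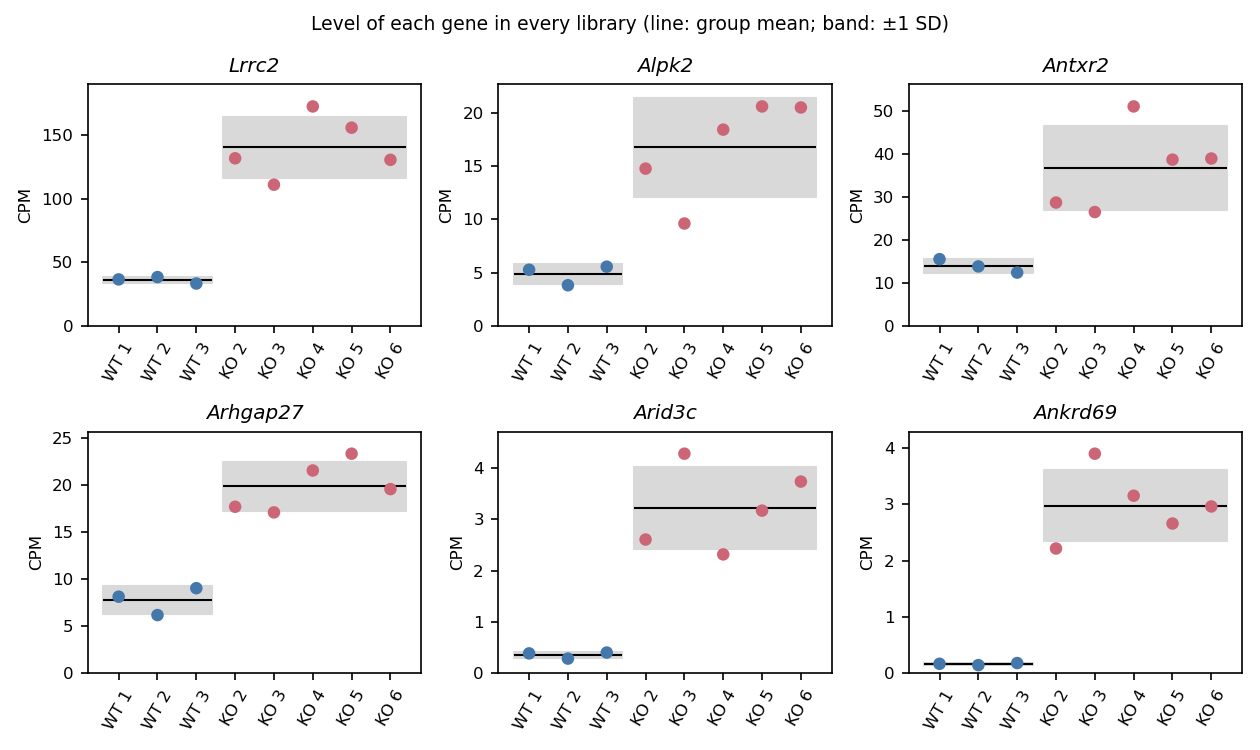
CPM (vertical axis, from 0) of the 6 genes in each of the 8 libraries, WT in blue and labelled KO in red, with the group mean as a line and ±1 SD as a band. In each panel the lowest red point is above the highest blue point, by 1.71-fold for Antxr2 and 5.79-fold for Arid3c. The gap is wider for Ankrd69, where the WT points stand for 3 or 4 counts each.

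For the main rows of these 6 genes every library labelled KO was above every WT library. Such an order was found for 10.8% of all tested genes, and the opposite order for 10.1%. With all 8 libraries, edgeR's quasi-likelihood test called 7.58% of genes at a Benjamini-Hochberg adjusted p-value under 0.05, 4.74% higher and 2.84% lower. For KO 2 and KO 3 against WT it called 0.891%, and for KO 4 to KO 6 against WT 42.8%. The genes were chosen on this contrast, so nothing is read from their own count. By log2 fold change they ranked 25 (Ankrd69), 51 (Arid3c), 129 (Lrrc2), 154 (Alpk2), 248 (Antxr2) and 266 (Arhgap27) of 20167. Scaled by the longest annotated transcript, the level in the libraries labelled KO was highest for Lrrc2, at 38.3 CPM per kilobase, followed by Antxr2 (6.50), Arhgap27 (4.10), Alpk2 (2.26), Arid3c (1.84) and Ankrd69 (0.414). In WT the order was the same, from 9.84 for Lrrc2 to 0.0224 for Ankrd69, with Arid3c at 0.203. The isoforms in use are unknown, so these are rough levels.

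The 6 genes did not share 1 order over the libraries labelled KO. In Alpk2, Antxr2 and Arhgap27, KO 2 and KO 3 were the lowest 2 of the 5. How many of all tested genes had this order was not counted. KO 4 to KO 6 also lay apart from KO 2 and KO 3 on the leading principal component. The order is therefore not read as particular to these genes. In Arid3c and Ankrd69, KO 3 was the highest, and the means of KO 4 to KO 6 were 0.893 and 0.957 times those of KO 2 and KO 3. Lrrc2 had neither order, with KO 3 lowest and KO 6 just below KO 2. Counting error alone is wider for Arid3c and Ankrd69 than for the other 4, because they have few counts.

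**Figure D2:**
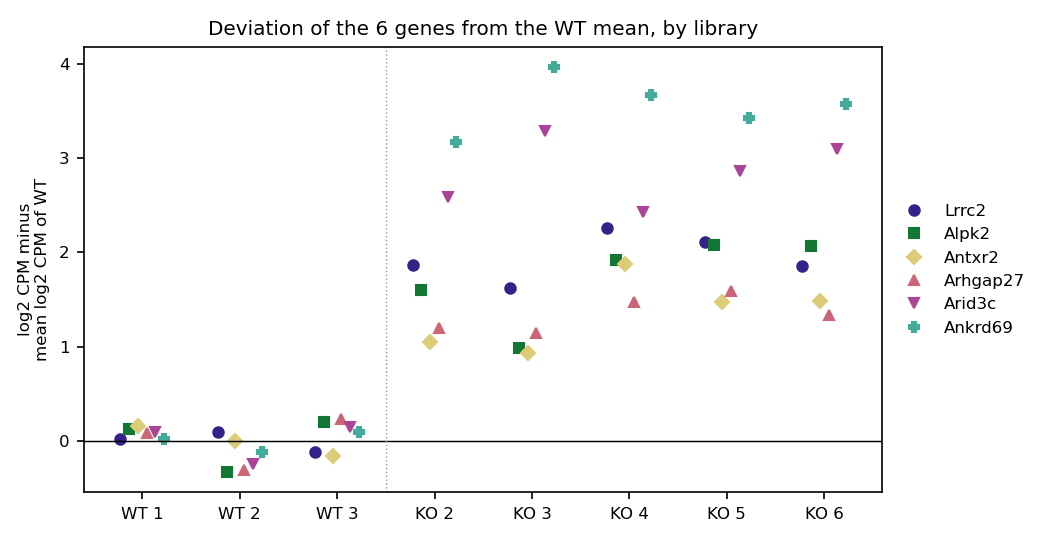
Log2 CPM of each gene minus its mean over the 3 WT libraries (vertical axis), by library (horizontal axis), with 1 symbol per gene. The 5 libraries labelled KO all lie above 0 for all 6 genes, and Alpk2, Antxr2 and Arhgap27 are lower in KO 2 and KO 3 than in KO 4 to KO 6.

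Among 14781 other named genes that were tested, the 3 nearest in profile to each of the 6 were found by the same distance over the 8 libraries. They share the step between the groups by construction, so they are described and not tested. The nearest to Lrrc2 was Fgf2, a growth factor raised in stressed retina, at a distance of 0.082, the smallest of all 18 pairs. Fgf2 was at 42.2, 41.3 and 37.4 CPM in WT and at 167, 124, 213, 181 and 164 CPM in KO 2 to KO 6, with its highest in KO 4 and its lowest in KO 3, like Lrrc2. Krt18, a keratin of the intermediate filaments, was also among its 3 nearest (0.23). Nearest to Alpk2 were A2m, a protease inhibitor (0.19), Trf, the iron carrier transferrin (0.24), and Klhl29, a kelch-like gene (0.25). Nearest to Antxr2 were Btc, an EGF receptor ligand (0.12), Stat3, a cytokine-activated transcription factor (0.16), and Heg1, a cell-surface receptor of endothelium (0.17). Stat3 was at 53.0 to 60.9 CPM in WT and at 109 to 164 CPM in the libraries labelled KO, with KO 3 lowest and KO 4 highest, as for Antxr2.

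Nearest to Arhgap27 were Ptprn, a protein of dense-core vesicles (0.10), Syne3, a nuclear envelope nesprin (0.15), and Inppl1, an inositol phosphatase (0.15). Ptprn was at 69.0 to 80.9 CPM in WT and at 146 to 221 CPM in the libraries labelled KO. The distances were larger for the scarce genes. Nearest to Arid3c were Prok1, a secreted prokineticin (0.43), Loxl4, a lysyl oxidase (0.46), and Egr1, an activity-induced transcription factor (0.48). Nearest to Ankrd69 were Rdh16f1 (0.25) and Rdh1 (0.31), both retinol dehydrogenases, and Loxl4 (0.46). Rdh1 averaged 1.35 CPM in WT and lay at 14.9 to 18.9 CPM in the libraries labelled KO.

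**Figure D3:**
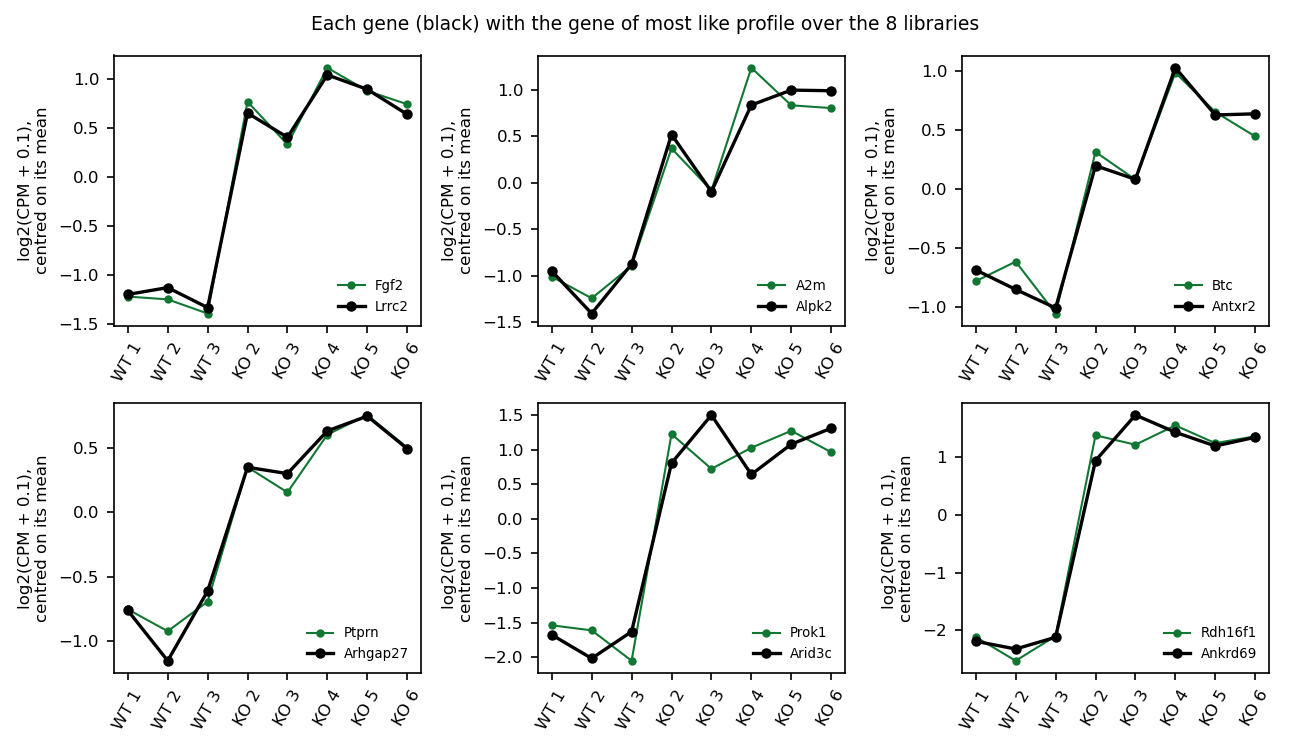
Log2(CPM + 0.1) of each of the 6 genes (black) and of its nearest gene (green), each centred on its own mean, in the 8 libraries. Lrrc2 and Fgf2 lie almost on each other, and the lines of Arid3c and Prok1 cross among the libraries labelled KO.

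The relatives and partners of the 6 genes were listed by family and binding partner, not by how they moved. The lists were made with earlier results of these data known. Of 136 listed genes, 131 were in the table and 120 were tested, and edgeR called 13 higher (10.8%) and 0 lower, where the share called higher among all genes was 4.74%. At an unadjusted p-value under 0.05, edgeR had 36 of the 120 higher (30%) and 7 lower (5.83%), against 15.1% and 12.2% of all tested genes. DESeq2 called 20 higher (16.7%) and 1 lower (0.833%) after adjustment, against 9.84% and 5.37% of the same 20167 genes. The median log2 fold change was 0.20, against 0.00073 over all tested genes. The 13 had log2 fold changes of 0.36 to 0.71. The number depended on the libraries: it was 1 for KO 2 and KO 3 against WT, 38 for KO 4 to KO 6 against WT, and 0 without WT 1, without WT 2 or without WT 3, so each of the 13 calls below rests on having all 3 WT libraries. It was 3 without KO 4, without KO 5 or without KO 6, and 28 without KO 3, where 8 relatives were also called lower. Calls over all genes, in either direction, moved as well, from 1529 with all libraries to 3992 without KO 3. They numbered 365 to 531 without KO 4, without KO 5 or without KO 6. For KO 4 to KO 6 against WT, 4379 of 19678 genes were called higher and 4037 lower. The moves in the number of relatives are therefore not read as particular to them. With offsets for GC content, Lama1, Lama5, Lamc1, Arhgap23, Arid1a and Ankrd11 lost the call, and the log2 fold change of Arhgap23 was 0.15 in place of 0.42.

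The close relatives named here did not pass the test. Antxr1, the other main anthrax toxin receptor, was at 22.2 to 22.7 CPM in WT and 21.5 to 38.4 CPM in the libraries labelled KO, with a log2 fold change of 0.29 (SE 0.17, adjusted p-value 0.284 in edgeR). Arid3a had a log2 fold change of 0.075 (edgeR adjusted p-value 0.712) and Arid3b of 0.32 (0.142). Per kilobase, Arid3a averaged 2.78 CPM in WT and 2.93 CPM in the libraries labelled KO, above Arid3c in both. Of the alpha kinases, 4 of 5 were tested and none was called. Alpk1 had a log2 fold change of 0.27 (edgeR adjusted p-value 0.472), Alpk3 of 0.35 (0.669), and Trpm7, a channel kinase and the most abundant of them at 113 CPM in WT, of -0.25 (0.162). Arhgap12 and Arhgap15, which resemble Arhgap27, had log2 fold changes of -0.074 (edgeR adjusted p-value 0.719) and -0.34 (0.255). Sh3kbp1, the endocytic adaptor that binds Arhgap27, had -0.048 (0.819).

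In the list for Antxr2, 4 of 23 tested genes were called higher (17.4%, against 4.74% of all tested genes). All of them were laminin chains, which are ligands of this receptor in basement membrane. The other tested laminin chains were not called, and of these only Lamb3 was lower (log2 fold change -1.01, edgeR adjusted p-value 0.176). Lamb2 was at 13.1 to 16.2 CPM in WT and 21.5 to 26.0 CPM in the libraries labelled KO, with a log2 fold change of 0.69 (SE 0.12, edgeR adjusted p-value 0.0104). Lama1 (0.71, SE 0.19), Lama5 (0.61, SE 0.16) and Lamc1 (0.50, SE 0.12) followed, with edgeR adjusted p-values of 0.0478, 0.0443 and 0.0353. These 3 were highest in KO 3, the library with the most lens transcripts, and each was also called without KO 3 (edgeR adjusted p-values 0.0175, 0.0246 and 0.0102). Of the 4, only Lamc1 was called for KO 2 and KO 3 against WT. The collagen IV chains, also ligands of Antxr2, were not called with all 8 libraries, and all 6 were highest in KO 3. Col4a1 was at 640 CPM in KO 3, at 31.6 to 47.0 CPM in the other libraries labelled KO and at 26.6 to 30.6 CPM in WT. Without KO 3 it was called higher (log2 fold change 0.58, edgeR adjusted p-value 0.0179). Col4a3 was at 93.6 CPM in KO 3, at 2.20 to 4.34 CPM in the other libraries labelled KO and at 9.78 to 11.5 CPM in WT. Without KO 3 it was called lower (-1.86, edgeR adjusted p-value 0.00107), as were Col4a4 (-2.02, 0.000238) and Col4a5 (-0.72, 0.0119). The part of lens tissue in these values was not tested.

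In the list for Arhgap27, 3 of 34 tested genes were called higher. Arhgap31, which acts on Cdc42 and Rac1, had a log2 fold change of 0.54 (SE 0.089, edgeR adjusted p-value 0.0102), Arhgap23 of 0.42 (0.0194) and Arhgap26 of 0.36 (0.0384). In the family of Arid3c, 3 of 13 were called higher: the chromatin remodelling subunits Arid1a (0.47, edgeR adjusted p-value 0.0431) and Arid1b (0.57, 0.0317), and the histone demethylase Kdm5c (0.65, 0.0255). Kdm5c is X-linked, and WT 3, the library with Y-linked transcripts, was its lowest WT library at 171 CPM against 228 and 209. Its log2 fold change was 0.54 without WT 3 (edgeR adjusted p-value 0.110), 0.75 without WT 1 (0.0809) and 0.68 without WT 2 (0.112). Of the ankyrin repeat genes, Ankrd6 (0.42, edgeR adjusted p-value 0.0359) and Ankrd11 (0.44, 0.0448) were called, 2 of 38 tested. Of the leucine-rich repeat relatives, Lrrc58 (0.41, edgeR adjusted p-value 0.0433) was called, 1 of 8 tested.

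**Figure D4:**
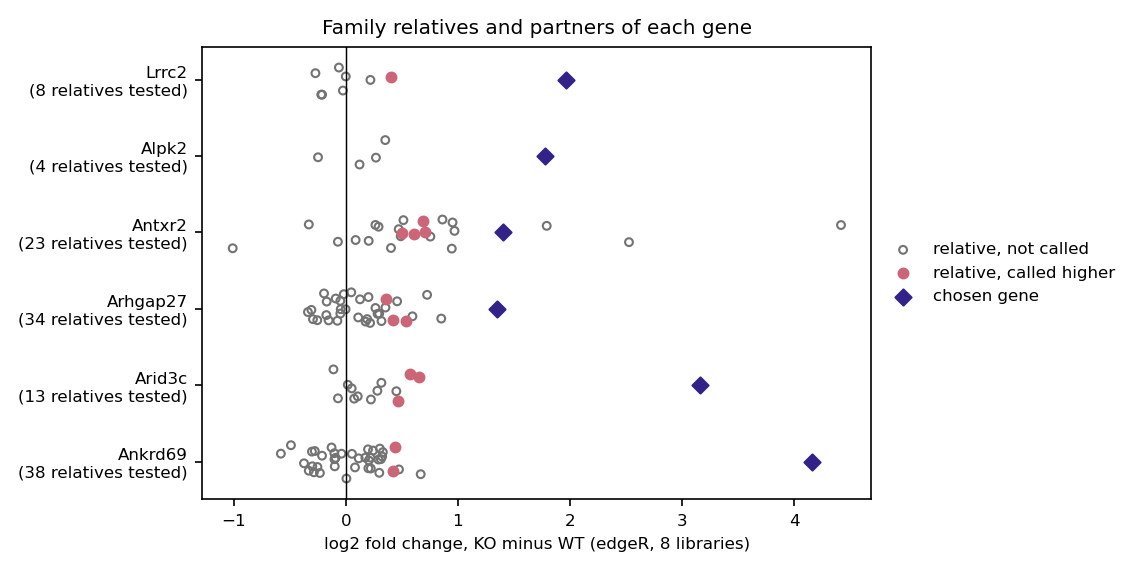
Log2 fold change of KO minus WT (horizontal axis) for the tested relatives of each gene (circles, filled where called higher) and for the gene itself (diamond). The 13 called relatives lie between 0.36 and 0.71, below the diamonds, and the uncalled circles above 1.5 are Col4a1, Col4a2 and Col6a3 of the Antxr2 list, which are far higher in KO 3 than in any other library.

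Position along the chromosome was not used to choose the genes. Of the 3 table genes on each side of every gene, 26 were tested, and edgeR called 4 higher (15.4%) and 0 lower, where the shares among all tested genes were 4.74% higher and 2.84% lower. At an unadjusted p-value under 0.05, 7 of the 26 were higher (26.9%) and 3 lower (11.5%), beside the 15.1% and 12.2% of all tested genes. DESeq2 called 4 higher (15.4%) and 1 lower (3.85%), beside 9.84% and 5.37%. The median log2 fold change of the 26 was 0.099. Gm10030 (chr9:110986201-110987804), 2135 bases beyond Lrrc2 on the same strand, was at 4.75 to 5.43 CPM in WT and at 8.99 to 17.5 CPM in the libraries labelled KO, a log2 fold change of 1.46 (SE 0.21, edgeR adjusted p-value 0.00545). It was called in each of the 18 fits that left out 1 library or 2 libraries labelled KO. It lies inside Rtp3 on the opposite strand, and 50.2% of its 31-mers occur in Rtp3, which was not called (0.93, edgeR adjusted p-value 0.208).

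Arhgap27os1 (chr11:103363213-103364651), antisense to Arhgap27 across its start, had 1, 2 and 1 counts in WT and 9, 15, 13, 11 and 9 in KO 2 to KO 6 (log2 fold change 2.96, edgeR adjusted p-value 0.0161). It shares 44.1% of its 31-mers with Arhgap27 and 34.3% with Plekhm1, so these few counts may be assigned with error. Map3k14, the kinase of the noncanonical NF-kappaB pathway, lies 64025 bases from Arhgap27 and was at 14.9 to 16.4 CPM in WT and 19.4 to 31.2 CPM in the libraries labelled KO (0.64, edgeR adjusted p-value 0.0318). Prdm8, a transcription factor of retinal neurons 136155 bases from Antxr2, was at 79.1 to 88.9 CPM in WT and 93.3 to 140 CPM in the libraries labelled KO (0.54, edgeR adjusted p-value 0.0330). With GC offsets Map3k14 had 0.39 and an edgeR adjusted p-value of 0.0812. Neither Map3k14 nor Prdm8 was called for KO 2 and KO 3 against WT, and Map3k14, Prdm8 and Arhgap27os1 each lost the call without any 1 of the WT libraries, which left 1 neighbour called. Map3k14 and Prdm8 also lost it without KO 4, without KO 5 or without KO 6.

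No neighbour of Arid3c or Ankrd69 was called. Dctn3, 666 bases from Arid3c, averaged 37.6 ± 4.61 CPM (SD, n = 3) in WT and 36.4 ± 5.30 CPM (SD, n = 5) under the KO label. Chrna6, the nearest table gene before Ankrd69, had a log2 fold change of -0.10 (edgeR adjusted p-value 0.713), and Unc5d, the nearest tested one after it, of -0.11 (0.663). Around Alpk2, Nedd4l was at 77.0 to 89.1 CPM in WT and 93.9 to 113 CPM in the libraries labelled KO (0.31, edgeR adjusted p-value 0.0645), and the antisense Gm50221 had 1.85 (0.0985). Malt1, on the other side of Alpk2, went the other way, at 21.7 to 24.4 CPM in WT and 12.5 to 21.6 CPM in the libraries labelled KO (-0.61, edgeR adjusted p-value 0.0580). Als2cl before Lrrc2 had 0.044 (edgeR adjusted p-value 0.935), Naa11 before Antxr2 had -0.87 (0.498), and the antisense Arhgap27os2 had 2.60 (0.111). Of the 31-mers of Arhgap27os2, 75.5% occur in Arhgap27, so its counts may be assigned with error. Gm43535 within Lrrc2 had 0, 0 and 44 counts in WT and 0, 64, 43, 67 and 0 in KO 2 to KO 6, and all of its 31-mers occur in Gm43520, so its fold change is not given.

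**Figure D5:**
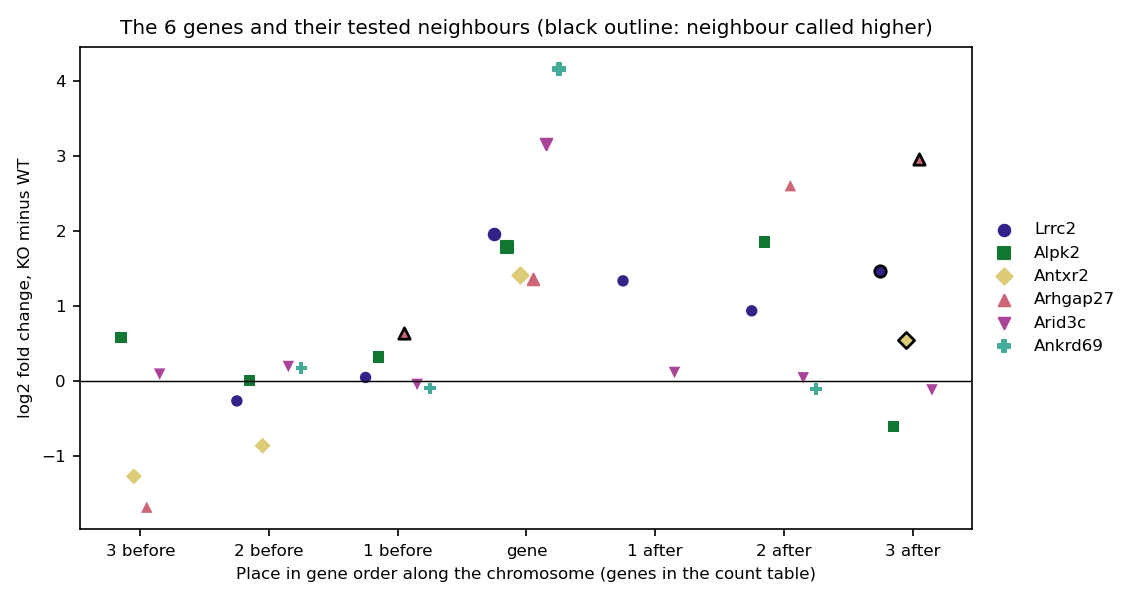
Log2 fold change of KO minus WT (vertical axis) for the 6 genes and their tested neighbours, by place in gene order (horizontal axis), with 1 symbol per gene and a black outline for a neighbour called higher. The neighbours of Arid3c and Ankrd69 lie near 0, and the 4 outlined points lie beside Lrrc2, Antxr2 and Arhgap27.

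Marker genes of cell types were set beside the 6 genes. In bulk retina, more cells of a type and more RNA per cell cannot be told apart. The stress list (11 genes, Gfap, Fgf2 and Stat3 among them) summed to 201 to 226 CPM in WT and 539 to 694 CPM in the libraries labelled KO, and edgeR called all 11 higher, with KO 3 and without it. The call count was 4 without WT 1, 4 without WT 2 and 5 without WT 3. That list was made with earlier results of these data known. Vim, an intermediate filament gene, was at 320 CPM in KO 3 and at 115 to 148 CPM in the other libraries labelled KO. Without Vim the stress sum was 134 to 145 CPM in WT and 319 to 562 CPM in the libraries labelled KO, with KO 3 lowest.

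Endothelial markers (6 genes) summed to 146 to 154 CPM in WT and 196 to 296 CPM in the libraries labelled KO, and 1 of 6 was called, Kdr (log2 fold change 0.92, edgeR adjusted p-value 0.00738). No endothelial marker was called without WT 1 or without WT 2, 1 was without WT 3 and 2 were without KO 3. Kdr, a receptor for vascular growth factor, made up most of that sum, and the other 5 markers overlapped between the groups, at 30.5 to 36.1 CPM and 32.7 to 45.7 CPM. Markers of pericytes and smooth muscle (6 genes) summed to 89.1 to 96.1 CPM in WT and 97.7 to 154 CPM in the libraries labelled KO, and Pdgfrb, a pericyte receptor, was called higher (0.93). Each other marker of this list overlapped between the groups. The highest sum was that of KO 3, where Acta2 was at 33.6 CPM, against 2.22 to 4.08 CPM in the other libraries labelled KO. Microglial markers (6 genes) summed to 22.9 to 25.8 CPM and 28.6 to 40.8 CPM, and 2 were called higher. Muller glia markers (6 genes) overlapped in sum, at 3077 to 3264 CPM and 3085 to 4682 CPM, most of it Glul, the glutamine synthetase gene. Without Glul they summed to 694 to 712 CPM in WT and 736 to 1027 CPM in the libraries labelled KO, and Sox9 (0.62, edgeR adjusted p-value 0.0269) and Kcnj10 (0.54, 0.0344) were called higher. Without KO 3, 4 Muller glia markers were called higher. That fit called 3992 of all genes, against 1529 with KO 3. The added Muller glia and endothelial calls are therefore not read as particular to these cells. No Muller glia or microglial marker was called in edgeR without WT 1, without WT 2 or without WT 3.

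Cone markers (7 genes) were lower in sum in the libraries labelled KO, at 641 to 858 CPM against 885 to 1090 CPM in WT. Of these, the cone transducin gene Gnat2 (log2 fold change -0.47) and the phosphodiesterase gene Pde6h (-0.74) were called lower, and Pde6c (0.51) was called higher. Without any 1 of the WT libraries, 1 cone marker was called lower and 0 higher in edgeR. Rod markers (8 genes) overlapped, at 40702 to 44051 CPM in WT and 35280 to 52424 CPM in the libraries labelled KO, or 44164 to 52424 CPM without KO 3. Of the 8, edgeR called none with KO 3 and 3 higher without it. Over all genes it called 1529 with KO 3 and 3992 without it, so the 3 calls are not read as particular to rods. The part of these shifts in the levels of the 6 genes was not tested. Striated muscle, where Lrrc2 and Alpk2 are best known, gave sums of 9.59 to 10.5 CPM in WT and 4.74 to 7.80 CPM in the libraries labelled KO for the 6 of 12 markers in the table, and none of the 5 tested was called. The widest fall was in Myh6, at 3.10 to 4.09 CPM in WT and 0 to 1.56 CPM in the libraries labelled KO. Myh8 was also lower without overlap, and the other muscle markers overlapped between the groups. The B and T cell markers, set beside Arid3c, summed to at most 1.59 CPM in any library, with 3 of 5 in the table.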

How the data were processed

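RNA sequencing of retina was analysed from 8 libraries. The values the authors deposited are whole numbers per gene, read here as estimated counts because the submitters' processing notes name Salmon. The submitters' processing notes name Trim Galore, Salmon 1.10.2, DESeq2 and the build GRCm38, with no order. Strand setting and annotation release are not given in the sources used here. Every gene of the deposited table had at least 16 counts in total. Positions and gene order come from GENCODE M21 on the same build (22121 of 26824 genes matched by identifier), and sequences come from RefSeq.

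Counts were scaled by TMM in edgeR 4.0.16 (R 4.3.3), filtered with filterByExpr and compared with the quasi-likelihood test over all 8 libraries, adjusted by Benjamini-Hochberg over 20167 genes at 0.05. CPM values are TMM-scaled, and log2 profiles use a prior count of 2. Labels give 1 mouse per library, and none of the 13 pairs within a group agreed within sampling noise (chi-square per degree of freedom 5.85 or more). Fits were tested on simulated data: of 200 genes changed 2-fold, 99 were called among 19688, with 7 others. Both groups hold libraries numbered 2 and 3, and nothing in the labels pairs them.

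The genes, the lists and the tests were chosen with earlier results of these data known. Named were the 6 genes, Kcnv2, every called relative or neighbour and the nearest tested neighbour on each side. So were the 3 most similar profiles and the most abundant alpha kinase (no call in that family). Outside this rule and after values were seen, other close relatives, the collagen chains, Lamb3, marker genes, Malt1 and Rtp3 were named. A few genes that this rule names are not reported here. Alternatives were RLE scaling, library size alone, no filter, DESeq2 1.42.0, fits without 1 library or 2 libraries labelled KO, subsets, a replicate block and, chosen after seeing the data, offsets for GC content, and marker lists and collagen chains without single libraries.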

Additional observations from a re-analysis of the deposited data

Results flagged for a closer look

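For 23 genes, the gap between the most extreme library labelled KO and its nearest neighbour was set against the range of those 5 libraries. It passed the limit of 0.71 in 3 genes, and chance gives about 1 in 20. All 3 were in KO 3. Lama1 was highest there, at 16.4 CPM against 9.59 to 11.6 CPM, with a gap of 0.711 of the range. Arid1b was lowest there, at 92.4 CPM against 127 to 139 CPM, with a gap of 0.739. Kdm5c was lowest there, at 251 CPM against 323 to 347 CPM, with a gap of 0.745. KO 3 also held the most lens transcripts, and their part in these gaps was not tested.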

How the results depend on the processing

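The 28 alternatives, of which 27 are distinct fits (leaving out KO 2 and KO 3 is the fit of KO 4 to KO 6), gave each of the 6 genes a higher level in the libraries labelled KO. The choice of the genes, as higher over subsets of these libraries, fixed that direction, so it is no sign of stability. The lowest and highest log2 fold changes were 1.75 and 2.13 for Lrrc2, 1.32 and 2.04 for Alpk2, 0.99 and 1.64 for Antxr2, 1.07 and 1.48 for Arhgap27, 2.90 and 3.37 for Arid3c, and 3.97 and 4.33 for Ankrd69. Moves beyond 1 SD of the libraries labelled KO were 0.99 (Antxr2) and 1.16 (Arhgap27) for KO 2 and KO 3 against WT, and 1.07 for Arhgap27 with GC content offsets; fold changes of all genes were related to GC content, with a Spearman rho of 0.459 across 18028 genes.

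Counts of called genes moved far more. Of all genes, 1529 were called with all libraries, 118 to 8416 over the 18 fits that left out libraries (lowest without KO 4 and KO 5, highest without KO 2 and KO 3, and 132 without WT 1), 3066 with DESeq2, 180 for KO 2 and KO 3 against WT and 8416 for KO 4 to KO 6. With library size alone, 41.8% of called genes were higher, against 62.5% with TMM, while the median of all genes moved by -0.033. Relatives called higher numbered 0 to 38 when libraries were left out, 8 with no filter, 20 with DESeq2, 1 for KO 2 and KO 3, 38 for KO 4 to KO 6 and 8 with GC offsets. Those called lower numbered 0 to 23, 1 with library size alone, 1 with DESeq2, 23 for KO 4 to KO 6 and 2 with GC offsets. Neighbours called higher numbered 1 to 7, with 1 for KO 2 and KO 3 and 7 for KO 4 to KO 6. Neighbours called lower numbered 0 to 5, with 1 by DESeq2 and 5 for KO 4 to KO 6. The cause of these moves was not tested.

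With the replicate number as a block (WT 2, WT 3, KO 2 and KO 3), 52 genes were called, 14 without the block, and 0 relatives and 0 neighbours either way. The 6 genes had log2 fold changes of 1.07 (Antxr2) to 4.20 (Ankrd69) under the block. Deviations of same-numbered libraries had correlations of -0.0044 and -0.24 across genes. The depth limits Ankrd69 and Arid3c most, with 10 and 22 counts in WT in sum.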
